A study of Mus musculus with 13 samples.

Results

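The regions described are the 658 widest peaks of an open chromatin list of the mouse kidney, those of 2000 bp or more, among 300755 peaks in all. They were chosen by width alone. The authors called peaks on the pooled nuclei of each cell type from all samples and merged those that overlapped, so that how open a region is, and in how many cell types, entered its width. Levels and breadth are therefore given as descriptions. The choice did not compare P0 with adult kidney, the contrast tested here, but nuclei of both stages entered each pooled call in unequal numbers, as in NP (2037 at P0 and 195 in the adult) and PT (1104 and 6308). The contrast is thus not wholly independent of the width.

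Nuclei of whole kidneys of newborn mice labelled P0 (2 samples), of mice aged 21 days (P21, 1 sample) and of mice aged 56 days (P56, 2 samples) were profiled by single nucleus assay for transposase-accessible chromatin (snATAC-seq). The P21 and P56 samples form the adult group, as in the study. No treatment or altered gene is given for any group, and the tissue protocol calls the youngest mice 1 day old. Whether a sample is 1 animal or a pool is not stated, so p-values measure the spread between these samples.

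The matrix scores each region in each nucleus as open or closed. The samples held 3361 to 7129 nuclei and 16980853 to 43794155 open calls, and the median nucleus had 3371 to 6737 open peaks. The P56 samples stood apart from each other, at a median of 3371 open peaks in sample 1 and 6178 in sample 2. Of all nuclei, 27652 lay in the 13 main clusters, which were nephron progenitors (NP), podocytes (Podo), 2 proximal tubule clusters (PT and PT2), the loop of Henle (LOH), the distal convoluted (DCT) and connecting (CNT) tubule, principal (PC) and intercalated (IC) cells of the collecting duct, endothelium (Endo), immune cells, stroma1 and stroma2. Markers with a peak at their start were most open in the cluster they mark, with Slc34a1 and Slc5a2 highest in PT, Kap and Akr1c21 in PT2 and Col3a1 in stroma2. These were means over all samples, so no cluster was checked at each stage apart. Whether the 195 adult nuclei named NP are the same kind of cell as the 2037 at P0 was thus not tested. The leads of Umod in LOH (19.1% of nuclei against 17.0% in the next cluster) and of Slc12a3 in DCT (36.4% against 34.6%) were narrow. Trpv5 and C1qb had no peak at a start, so CNT and immune nuclei were not checked in this way. In all, 477 barcodes occurred in more than 1 sample.

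Open chromatin is DNA that nucleosomes leave free for transcription factors and for the transposase used in the assay. Promoters rich in CpG dinucleotides are kept open in most cell types, whereas enhancers, which lie within introns or far from genes, are mostly open in the few cell types that use them. Wide stretches of open chromatin can arise where several such elements adjoin or where a gene is very active.

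Stretches of 5 of the regions are printed because they show the 2 kinds of sequence that the results set apart. The first 4 are the central 240 bp of regions without a start site that were restricted to 1 cluster at P0 or in the adult, and the last is 240 bp upstream of the start of Jun, a region open in every cluster. They were read from the mm10 genome sequence, 5′ to 3′, on the plus strand except for Jun, which lies on the minus strand. Capitals mark matches, on either strand, to 10 short motifs. The letters searched were GTTAAT for HNF1, a factor of tubule cells. Those of AP-1, the dimer of Jun and Fos proteins, were TGANTCA. For the zinc finger factors of the GATA family they were AGATAA. For the broad family of ETS factors they were ACCGGAA, and for its blood cell member PU.1 they were GAGGAAG. The box bound by SP1, common in promoters, was read as GGGCGG, and the box bound by the promoter factor NFY as CCAAT. The E-box of helix-loop-helix proteins was searched as CAGCTG, the site of the SOX family as ACAAAG, and the motif of nuclear receptors as AGGTCA.
Gpx3 gene body, restricted to PT at both stages, chr11:54911732-54911971: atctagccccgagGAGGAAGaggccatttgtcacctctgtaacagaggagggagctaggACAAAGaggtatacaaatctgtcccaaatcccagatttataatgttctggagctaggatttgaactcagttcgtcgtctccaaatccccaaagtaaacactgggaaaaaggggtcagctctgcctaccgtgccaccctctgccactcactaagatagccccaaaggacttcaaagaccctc
Region nearest Mpdz, restricted to Endo at both stages, chr4:81178382-81178621: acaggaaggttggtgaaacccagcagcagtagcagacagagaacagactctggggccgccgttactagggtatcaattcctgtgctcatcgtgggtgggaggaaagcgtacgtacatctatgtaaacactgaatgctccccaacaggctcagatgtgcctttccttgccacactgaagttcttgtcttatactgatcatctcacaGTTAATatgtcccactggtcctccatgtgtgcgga
Region nearest Gm10295, restricted to stroma2 in the adult only, chr7:71399645-71399884: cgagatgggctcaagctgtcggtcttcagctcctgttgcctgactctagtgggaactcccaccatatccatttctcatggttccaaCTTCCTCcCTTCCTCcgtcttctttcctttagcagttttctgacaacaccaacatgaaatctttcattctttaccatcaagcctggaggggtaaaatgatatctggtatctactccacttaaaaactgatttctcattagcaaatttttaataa
Osbp2 intron, restricted to PC at P0 and led by PC in the adult at a mean share under 10%, chr11:3822112-3822351: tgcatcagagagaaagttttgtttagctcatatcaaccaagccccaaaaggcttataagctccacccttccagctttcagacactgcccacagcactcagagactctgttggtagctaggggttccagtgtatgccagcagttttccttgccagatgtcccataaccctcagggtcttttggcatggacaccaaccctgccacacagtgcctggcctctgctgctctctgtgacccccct
Jun, upstream of the start, open in all clusters, chr4:95052233-95052472: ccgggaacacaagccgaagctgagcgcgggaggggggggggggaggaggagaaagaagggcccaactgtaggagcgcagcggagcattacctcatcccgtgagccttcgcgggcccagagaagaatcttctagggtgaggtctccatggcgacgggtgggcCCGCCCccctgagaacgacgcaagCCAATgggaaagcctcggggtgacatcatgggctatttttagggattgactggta

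The Jun stretch held 15 CG dinucleotides, against 0 to 6 in each of the 4 restricted stretches, and its matches were 1 SP1 and 1 NFY box. The Gpx3 stretch held 1 PU.1 and 1 SOX match, the Mpdz stretch 1 HNF1 motif, the Gm10295 stretch 2 PU.1 matches and the Osbp2 stretch 0 matches. Such short motifs are common. Of the 300693 windows of this length at the middle of a peak, 20.4% held SOX letters, 10.1% PU.1 letters, 9.39% the HNF1 motif, 7.44% SP1 letters and 26.5% NFY letters. In the first 240 bases of 32851 RefSeq promoters, the shares were 31.3% for SP1 and 33.0% for NFY.

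The regions spanned 2000 to 6434 bp, with a median of 2186 bp. They made up 0.219% of all peaks, 0.990% of the bases in peaks and 1.94% of all open calls. A total of 96 were 2500 bp or wider and 17 were 3000 bp or wider. Chromosomes 4 (57 regions), 11 (53) and 2 (49) held the highest numbers, and 7 lay on X, 1 on Y and 2 in the mitochondrial genome.

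Most of the regions lay over the start of a gene. An annotated transcription start site fell inside 495 of the 658 (75.2%), against 7.43% of all peaks, and a protein-coding start inside 465 (70.7%, against 6.29%). The median region held 3 annotated start sites and the highest number was 22. In 38 regions 2 or more coding genes started, 30 of them with starts on both strands. By genomic element, 70.8% of the regions were exonic, against 14.1% of all peaks, 10.6% were intronic, against 46.7%, and 8.36% were distal, against 31.6%. In all, 656 genes started inside a region, which was 3.17% of the 20687 genes that started inside any peak.

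The other 163 regions held no start site. Of these, 98 lay inside a gene and 65 outside genes. Their median distance to a coding start was 21776 bp, with 34 within 5000 bp and 24 more than 100000 bp away. They are named here by the gene they lie in, or else by the nearest coding gene, which need not be their target.

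Base composition separated both kinds. The median GC content was 60.7% in regions with a start site and 49.5% in those without. The ratio of observed to expected CG dinucleotides was 0.69 and 0.25. By a GC content of 50% and a ratio of 0.6, 343 regions were CpG rich, and 333 of these held a start site. SP1 letters occurred 3.02 times per kb in regions with a start site, 0.64 times per kb in those without and 0.57 times per kb over all peaks. AP-1 letters went the other way, at 0.21 per kb in the regions and 0.35 per kb over all peaks, and so did GATA (0.27 against 0.55), the HNF1 motif (0.24 against 0.41) and SOX (0.71 against 0.95).

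These features moved in step with width over the whole list. From peaks under 500 bp to those of 2000 bp or more, the share with a start site was 1.99%, 10.3%, 37.4%, 57.6% and 75.2% in successive classes. Median GC content was 45.5%, 47.2%, 51.0%, 55.7% and 58.8%. The median share of all nuclei in which a peak was open was 0.343%, 1.41%, 4.73%, 10.1% and 15.9%. A wider peak has more room for a fragment, and the rate of openness per kb, -ln(1 - share) divided by width, also differed, from 0.0111 in the narrowest class to 0.0751 in the widest.

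**Figure D1:**
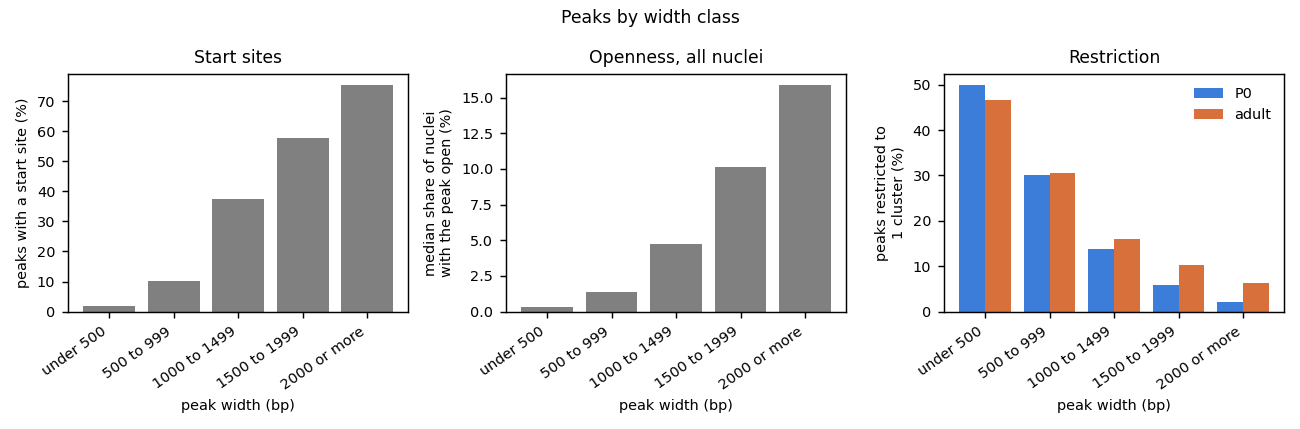
Bars give, for 5 width classes of peaks, the percent with a start site inside (left), the median percent of all nuclei with the peak open (middle) and the percent restricted to 1 cluster among peaks whose highest share was at least 10% (right, P0 blue, adult orange). The widest class has the highest share with a start site (75.2%) and the lowest share restricted to 1 cluster (2.16% at P0 and 6.41% in the adult).

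The widest regions were not typical ones. The first and second lay in the mitochondrial genome, at chrM:172-6605 (6434 bp, over mt-Co1, mt-Nd1 and mt-Nd2) and chrM:11121-15870 (4750 bp, over mt-Cytb, mt-Nd5 and mt-Nd6). The first was open in 44.6% and 34.8% of PT2 nuclei at P0, in 17.7% in the P21 sample and in 47.2% and 7.76% at P56. P56 sample 1 was the highest of the 5 samples and P56 sample 2 the lowest, so the adult samples spanned both P0 values. It was open in every cluster, in a mean of at least 25.9% of nuclei at P0 and 14.9% in the adult.

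The fourth widest region, chr17:39843133-39846875 (3743 bp), lay over the long noncoding gene Gm26917 at a locus with GC content of 67.7%. In stroma2 it was open in 59.1% and 56.2% of nuclei at P0, 47.1% in the P21 sample and 56.8% and 52.0% at P56. The groups overlapped at P56 sample 1. The fifth, chrY:90741146-90744827 (3682 bp), lay outside genes on the Y chromosome, 9994 bp from the start of Gm21860. It was open in 8.03% and 41.7% of LOH nuclei at P0, 10.9% in the P21 sample and 7.77% and 38.0% at P56, so that P0 sample 2 and P56 sample 2 were high and the other 3 samples low, at both ages.

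Among the 10 widest were also regions of known kidney genes. Slc12a3 encodes the thiazide-sensitive sodium chloride cotransporter that defines the distal convoluted tubule, and a region of 4224 bp lay in its gene body (chr8:94362093-94366316), 5782 bp from the start. It was open in 56.9% and 56.1% of DCT nuclei at P0, 49.5% in the P21 sample and 83.4% and 28.6% at P56. The P56 samples lay above and below both P0 samples, and no change was called in DCT (log2 P0 over adult -0.75 ± 0.54 SE, edgeR quasi-likelihood adjusted p = 0.57). In PT2 it was open in 19.3% and 30.4% at P0, 51.5% in the P21 sample and 47.2% and 73.8% at P56. All adult samples lay above both P0 samples there, with a log2 difference of -1.41 ± 0.28 (SE, edgeR adjusted p = 0.00599). The mean adult share in PT2, 57.5% ± 14.3 (SD, n = 3), was above that in DCT, 53.8% ± 27.7 (SD, n = 3), a gap smaller than either spread.

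Gfra1, the coreceptor for the growth factor GDNF, started inside a region of 3355 bp (chr19:58452812-58456166). In CNT this was open in 25.9% and 28.7% of nuclei at P0, 6.02% in the P21 sample and 1.70% and 6.02% at P56, and the groups did not overlap. The log2 difference was 2.34 ± 0.36 (SE, edgeR adjusted p = 9.19e-05), and it was called higher at P0 in 4 of the 6 clusters where samples of both stages reached the minimum of the filter on low counts, which is set out with the tests of age. In CNT a single adult sample reached that minimum. In PT2 it was open in 21.7% and 17.9% at P0, 9.40% in the P21 sample and 17.5% and 26.8% at P56, with groups that overlapped. The other wide regions held the starts of Hivep2 (3615 bp), of the noncoding gene D630033O11Rik (3306 bp) and of Sox12, a SOX family transcription factor (3205 bp), and the tenth was that of Gpx3, described below.

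At the limit of 2000 bp, the members just inside were those of Socs1, an inhibitor of cytokine signalling, of Gnas, the stimulatory G protein subunit, and a region 12697 bp from the start of Bfsp1, all 2000 bp wide. They were most open at P0 in stroma1 (53.0%), Endo (35.7%) and stroma2 (27.8%). Just outside lay a region 9413 bp from the start of Fcmr, an intronic region of Lmo7 (1997 bp) and one over the start of 1110032F04Rik (1996 bp), whose highest mean shares at P0 were 6.14%, 14.3% and 25.6%.

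The regions lay over genes of most of the groups listed for the kidney, but over few of each. Of 32 Hox genes with a peak at a start, Hoxb9, Hoxd8 and Hoxd9 started inside a region. The same held for Maf, Mecom and Ppargc1a among 26 tubule transcription factor genes, for Hmga2 among 15 nephron progenitor genes, for Foxd1 among 21 stromal genes and for Nrp1 among 21 endothelial genes. Of 33 signalling genes of the Notch, Wnt, BMP and FGF pathways there were 4, namely Bmp4, Fgf9, Spry4 and a long transcript of Fgfr2 that starts in the Ctbp2 region. Of 413 transport genes there were 8 (1.94%), which were Atp6v0a4, Slc16a7, Slc22a23, Slc38a1, Slc4a4, Slc6a15, Slc8a1 and Slc9a2. None of 15 podocyte and 12 immune genes started inside a region. Jun was the only one of 33 immediate early and stress genes, Cdkn2c the only one of 15 cell cycle genes, Sox12 the only one of 8 Sox and Id genes, and Eif4e, Eif4e3, Rpl7 and Rps6ka3, a kinase gene caught by its prefix, were those of 162 ribosome and translation genes. Over all genes with a start in a peak the share was 3.17%.

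In each of the 13 clusters these regions were open far more often than the typical peak. At P0 the median region was open in 6.61% of immune nuclei, in 12.8% of Podo nuclei and in 16.5% to 24.0% of nuclei of the other clusters, where PT2 was highest and LOH next at 21.9%. In the adult the medians were 5.97% in immune nuclei, 6.60% in Endo and 10.1% to 18.6% elsewhere, with PT2 again highest. The median over all peaks was under 0.9% in each cluster and stage. Nuclei differ in depth between clusters, and the order followed it in part. The median PT2 nucleus had 8548 to 10199 open peaks in the P0 samples, and the median immune nucleus 3025 to 3677. Thinned to 1000 open peaks per nucleus, the median regions were at 2.54% in PT2 and 1.65% in immune nuclei at P0, at 2.36% and 1.56% in the adult, and at 2.30% to 3.05% in all other clusters.

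The cluster in which a region was most open also changed with depth. Without thinning, PT2 led for 179 regions at P0 and 247 in the adult, and after thinning for 25 and 29. Immune nuclei led for 1 region at P0 and 15 in the adult, and after thinning for 116 and 81. The same cluster led at both stages for 246 regions. The share in the leading cluster had a median of 33.1% at P0 (range 5.57% to 78.6%) and of 25.1% in the adult (range 1.27% to 68.2%).

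Breadth was counted as the number of clusters whose mean share was at least 50% of that of the leading cluster. The median region was counted in 8 clusters at P0 and in 6 in the adult. At P0, 268 regions were broad, with 10 or more clusters, 287 had 4 to 9, 89 had 2 or 3 and 14 were restricted to 1 cluster with a share of at least 10%. In the adult there were 174 broad regions, 300 with 4 to 9 clusters, 133 with 2 or 3 and 37 restricted ones. A further 14 were counted in 1 adult cluster with a share under 10%, so that 51 had 1 cluster at any level. A total of 148 regions were broad at both stages, and 77 at P0 and 38 in the adult were counted in all 13 clusters.

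Breadth went with the start site. Regions with a start site were counted in a median of 10 clusters at P0 and 7 in the adult, and those without in 4 and 3. Of the broad regions, 249 of 268 at P0 and 159 of 174 in the adult held a start site, whereas 10 of the 14 restricted at P0 and 20 of the 37 restricted in the adult held none. Among peaks under 500 bp whose share reached 10% in some cluster, 49.9% were restricted at P0 and 46.7% in the adult, against 2.16% and 6.41% of the widest class. Over peaks of all widths that reached 10%, the shares were 26.9% and 26.7%.

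**Figure D2:**
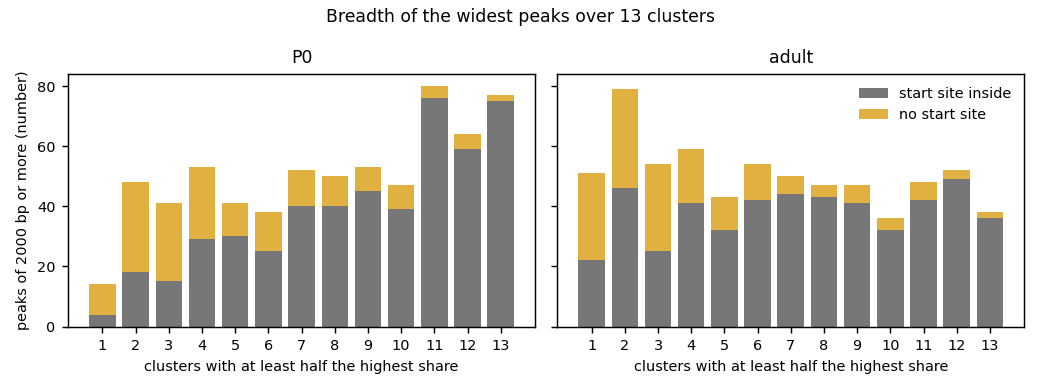
Bars give the number of regions (y axis) by the number of clusters counted (x axis, 1 to 13), at P0 (left) and in the adult (right), with regions that hold a start site in grey and those that do not in yellow. Regions without a start site sit at the low end, with medians of 4 clusters at P0 and 3 in the adult.

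Regions counted in 2 or 3 clusters fell into many sets. At P0 the most frequent sets were stroma1 with stroma2 (16 regions), PT with PT2 (13), Endo with both stromal clusters (6) and Endo with stroma2 (5). In the adult they were PT with PT2 (26) and NP with PT and PT2 (5), while stroma1 with stroma2 had 3.

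The restricted regions at P0 were 7 in Endo, 2 in PT2 and 1 each in NP, PT, DCT, PC and stroma2. In the adult they were 10 in PT2, 9 in stroma2, 7 in PT, 6 in Podo, 3 in Endo and 1 each in PC and IC. LOH, CNT, immune nuclei and stroma1 had 0 at either stage. In each sample of the stage, the named cluster was the leading one for all 14 and all 37. After thinning, 9 of the 14 and 23 of the 37 were still counted in that 1 cluster alone. Of the 10 in adult PT2, the cluster with the deepest nuclei, only those of Aadat and Gm21321 were. The others were counted in 2 to 10 clusters. All adult Podo regions stayed in 1 cluster, and so did those of stroma2 except Bfsp1 and Gm13470. Altogether 46 regions were restricted at P0 or in the adult, and 5 of them in the same cluster at both stages, namely those named Aadat, Gpx3, Cdc42ep1, Mpdz and Ephb4. Without P56 sample 1 there were 3 such regions.

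**Figure D3:**
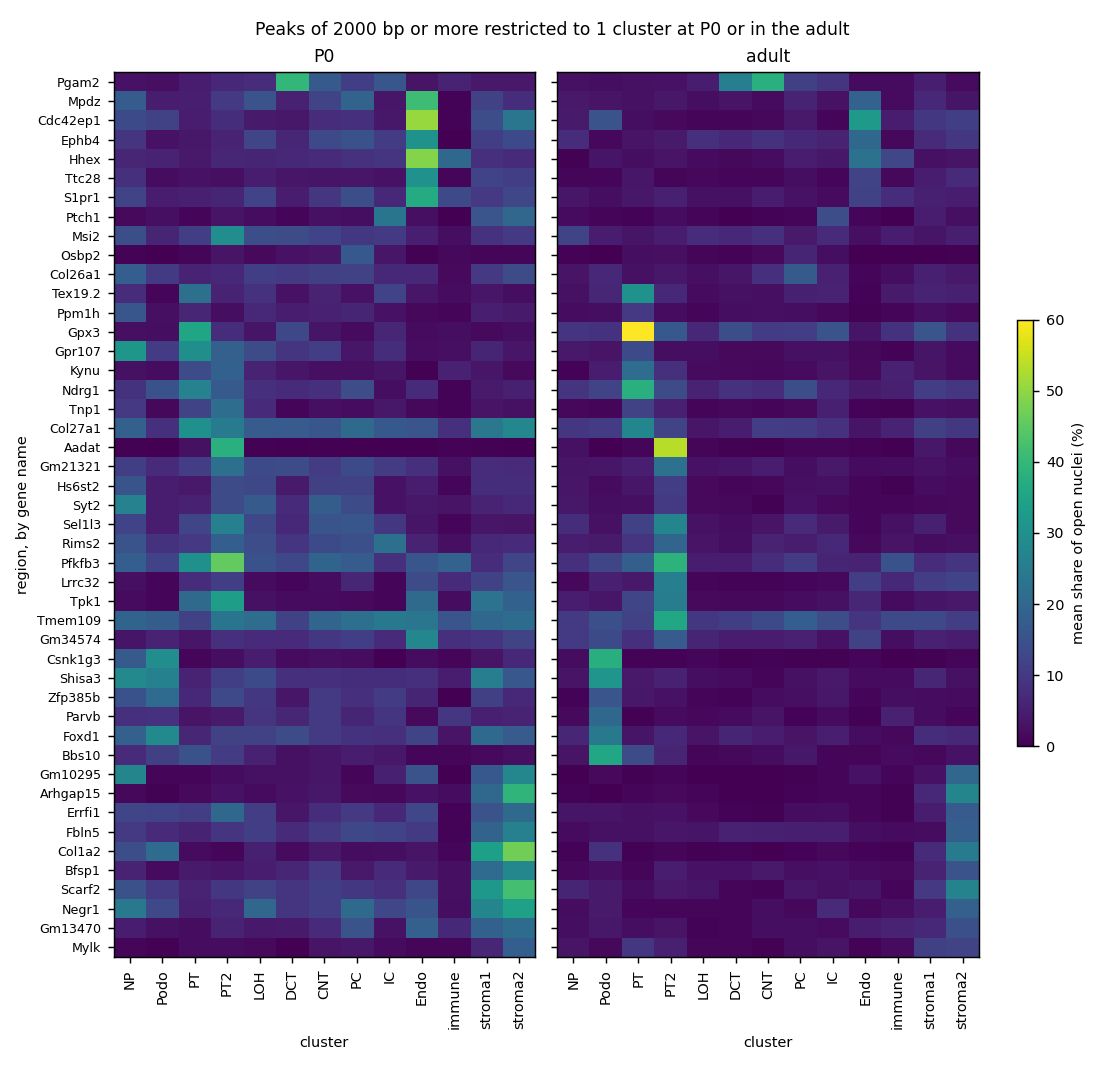
Colour gives the mean percent of nuclei with the region open (0 to 60%) for the 46 regions restricted to 1 cluster at P0 or in the adult (y axis, by gene name) in each of the 13 clusters (x axis), at P0 (left) and in the adult (right). The Gpx3 region exceeds the scale in adult PT, at 61.9%, and the endothelial regions at the top stand out more at P0 than in the adult.

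Regions of both proximal tubule clusters were restricted at both stages. Aadat encodes an aminotransferase that degrades kynurenine and the lysine product aminoadipate, and its intronic region was open in 34.9% and 41.1% of PT2 nuclei at P0, 68.4% in the P21 sample and 22.5% and 69.9% at P56. P56 sample 1 was the lowest of all samples, so the groups overlapped, and the log2 difference was -0.66 ± 0.41 (SE, edgeR adjusted p = 0.304). In PT it was open in 2.74% and 2.87% at P0 and in 0.610% to 0.903% in the adult samples, with a log2 difference of 1.58 ± 0.43 (SE, edgeR adjusted p = 0.0129). Repeat sequence made up 81.7% of this region, against a median of 10.3% over all regions.

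Gpx3 encodes the glutathione peroxidase that the kidney secretes into plasma. The region in its gene body (chr11:54910259-54913444, 3186 bp) was open in 39.1% and 32.0% of PT nuclei at P0, 57.3% in the P21 sample and 60.1% and 68.2% at P56. All adult samples lay above both P0 samples, and the difference was called (log2 -1.21 ± 0.23 SE, edgeR adjusted p = 0.00175). In the adult, PT2 came next at a mean of 16.4% ± 9.71 (SD, n = 3). Of the other clusters where samples of both stages reached the minimum count of the filter, it was called higher in the adult in LOH. In stroma1 it was open in 1.74% and 1.43% of nuclei at P0, 20% in the P21 sample and 3.74% and 23.8% at P56, and it passed the filter there through adult samples alone, so no fold is given.

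Among the 17 regions restricted to adult PT or PT2, the intronic region of Ndrg1 was open in a mean of 38.1% of adult PT nuclei, against 14.4% in PC, the next cluster. The start of Kynu, which encodes kynureninase, was open in 21.5% of adult PT and 8.05% of PT2 nuclei. The start of Pfkfb3, a regulator of glycolysis, led in PT2 at both stages, at 45.7% at P0 and 38.8% in the adult, and passed the limit in the adult, when PT was at 18.1%. After thinning to equal open peaks per nucleus, none of these 3 was counted in a single adult cluster, with 2 clusters for Ndrg1, 2 for Kynu and 4 for Pfkfb3.

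Endothelial regions made up 7 of the 14 restricted at P0. A region 5868 bp from the start of Cdc42ep1, an effector of the GTPase Cdc42 (chr15:78834422-78836756), was open in 52.5% and 48.8% of Endo nuclei at P0, 31.7% in the P21 sample and 31.2% and 34.1% at P56. The samples of each group were close, and both P0 samples lay above all adult ones. The region was nonetheless called higher in the adult (log2 -0.73 ± 0.20 SE, edgeR adjusted p = 0.00767). The test is relative to all open calls of the cluster, and the median Endo nucleus had 6509 to 7196 open peaks in the P0 samples and 2099 to 2442 in the adult ones.

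A region 105174 bp from the start of Mpdz, a scaffold protein with many PDZ domains (chr4:81177477-81179525), was open in 46.3% and 36.7% of Endo nuclei at P0, 15.8% in the P21 sample and 22.1% and 18.8% at P56. Both P0 samples were again higher in share, and the test relative to all open calls gave a log2 difference of -0.27 ± 0.21 (SE, edgeR adjusted p = 0.34). The regions over the start of Hhex (48.9% of Endo nuclei at P0, 20.3% in immune nuclei), in an intron of Ttc28 (30.4%) and 71459 bp from the start of S1pr1 (36.8%), which encodes a receptor for a blood lipid, were restricted to Endo at P0. After thinning, Ttc28 was still counted in Endo alone at P0, while Hhex and S1pr1 were counted in 2 clusters. In the adult, Endo still led for these 3, at 22.5%, 12.3% and 11.6%. The start of the noncoding gene Gm34574 was open in 27.7% of Endo nuclei at P0 (2 clusters after thinning), but in the adult PT2 led, at 17.3%, with Podo next at 13.4%. The region in Ephb4, a receptor of venous endothelium, was open in 30.7% of Endo nuclei at P0 and 20.3% in the adult.

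Podocyte regions were restricted in the adult. The one with the highest ratio lay far from genes, 186862 bp from the start of Csnk1g3 (chr18:54119106-54121420), and was open in 26.4% and 32.3% of Podo nuclei at P0, 44.7% in the P21 sample and 25.5% and 43.6% at P56. P56 sample 1 lay below both P0 samples, and no change was called (log2 -0.43 ± 0.18 SE, edgeR adjusted p = 0.172). In NP it was open in 16.2% and 17.9% of nuclei at P0 and in 1.89% to 2.22% in the adult samples, which the filter on low counts kept out of the test. The start of Shisa3 (chr5:67607027-67609722) showed the same in both clusters. In NP it was open in 25.8% and 30.6% at P0, 5.77% in the P21 sample and 0% and 3.77% at P56, without overlap. It passed the filter there through the P0 samples alone, so no fold is given. The 0 of 90 nuclei in P56 sample 1 allow a share of up to 3.33%. In Podo it was open in 24.4% and 28.5% at P0, 27.7% in the P21 sample and 19.7% and 46.2% at P56, with overlapping groups (log2 -0.25 ± 0.20 SE, edgeR adjusted p = 0.568). Foxd1, a transcription factor of stromal progenitors and podocytes, started in a region open in a mean of 28.6% of Podo and 20.6% of stroma1 nuclei at P0, and of 24.4% and 7.93% in the adult.

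Of the stromal regions, 9 were restricted to stroma2 in the adult and 1 at P0. The latter lay over a start of Mylk, the myosin light chain kinase of smooth muscle. In stroma2 it was open in 16.1% and 19.9% of nuclei at P0, 10.2% in the P21 sample and 13.6% and 12.8% at P56. In stroma1 it was open in 6.38% and 6.52% at P0, 11.1% in the P21 sample and 12.1% and 10.9% at P56, so that the clusters stood apart at P0 and close in the adult. After thinning, it was counted in 2 clusters at P0.

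The other 9 stood apart in the adult. An intronic region of Arhgap15 (chr2:44146135-44148500) was open in 38.0% and 40.5% of stroma2 nuclei at P0, 26.2% in the P21 sample and 26.4% and 29.7% at P56. In stroma1 it was open in 18.8% and 21.6% at P0, 4.44% in the P21 sample and 10.3% and 5.94% at P56. Both clusters were higher in share at P0 without overlap, and relative to all open calls the log2 difference was -0.42 ± 0.16 in stroma2 (SE, edgeR adjusted p = 0.032) and 0.97 ± 0.31 in stroma1 (SE, edgeR adjusted p = 0.00841). In stroma1 a single adult sample reached the minimum of the filter on low counts. A region 47179 bp from the start of Gm10295 (chr7:71398664-71400865) was open in 25.8% and 29.1% of NP nuclei at P0 and in 0% of those of each adult sample, 0 of 195 adult NP nuclei in all, which allows a share of up to 1.54%. In stroma2 it was open in 26.8% and 28.6% at P0, 20.9% in the P21 sample and 17.2% and 21.2% at P56. Regions at matrix genes were also restricted to stroma2 in the adult, at 24.8% for one 14248 bp from the start of Col1a2, a collagen I chain, and at 18.1% over the start of Fbln5, an elastic fibre protein.

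In the distal nephron, restricted regions were few. The start of Pgam2, a phosphoglycerate mutase best known from muscle (chr11:5802090-5804157), was open in 39.2% and 40.4% of DCT nuclei at P0, 22.8% in the P21 sample and 19.2% and 35.5% at P56. In CNT it was open in 13.3% and 20.8% at P0, 37.3% in the P21 sample and 25.2% and 51.9% at P56. CNT thus lay below DCT in both P0 samples and above it in all adult ones, and the adult rise was called in CNT (log2 -1.57 ± 0.25 SE, edgeR adjusted p = 9.71e-05) and not in DCT (log2 0.04 ± 0.24 SE, edgeR adjusted p = 0.978). An intronic region of Osbp2 (chr11:3821217-3823246) was open in 15.5% and 17.4% of PC nuclei at P0, 4.85% in the P21 sample and 7.14% and 6.60% at P56, with a log2 difference of 0.82 ± 0.31 (SE, edgeR adjusted p = 0.0467). PC was the single cluster counted in the adult too, with PT2 next at 2.48%, but its mean of 6.20% was under the 10% minimum. A region in Ptch1, the receptor for hedgehog ligands (chr13:63524183-63526261), was open in a mean of 23.4% ± 4.798 (SD, n = 2) of IC nuclei at P0 and 14.1% ± 2.80 (SD, n = 3) in the adult. In stroma2 the same region was open in 18.9% and 20.5% at P0 and in 2.06% to 2.91% in the adult samples (log2 2.08 ± 0.27 SE, edgeR adjusted p = 1.31e-06), so that IC alone was counted in the adult.

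**Figure D4:**
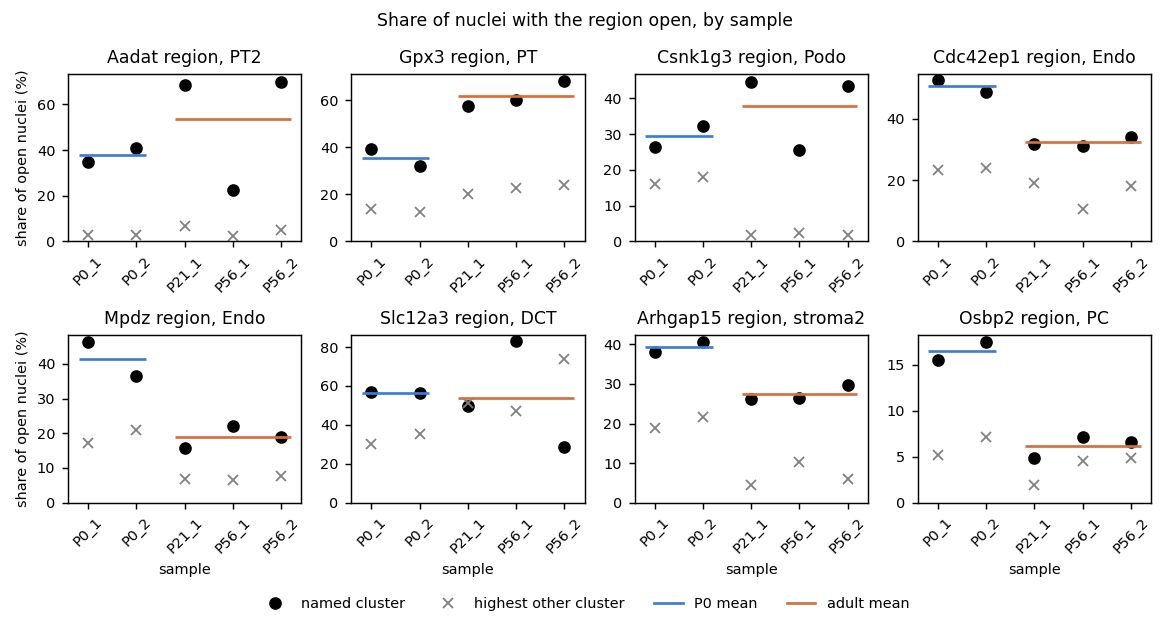
Points give, for 8 regions, the percent of nuclei with the region open (y axis) in the named cluster in each of the 5 samples (x axis, dots), the highest other cluster (crosses) and the mean of each group (lines). The Gpx3, Cdc42ep1, Mpdz, Arhgap15 and Osbp2 panels show groups that do not overlap, and in the Aadat, Csnk1g3 and Slc12a3 panels a P56 sample lies below both P0 samples.

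At the other end, some regions were open in a large share of nuclei of every cluster. Jun encodes a subunit of the transcription factor AP-1, and in PT2 the region over its start (chr4:95051614-95053746) was open in 75.9% and 64.3% of nuclei at P0, 52.6% in the P21 sample and 44.1% and 75.2% at P56. Its lowest mean share in any cluster was 46.9% at P0 and 44.6% in the adult. For Akt1s1, a subunit of the growth kinase complex mTORC1 (chr7:44848599-44850615), the lowest were 47.8% and 43.5%. For Rbm15, which encodes an RNA-binding protein of the m6A writer complex (chr3:107332275-107334392), they were 49.6% and 39.8%, for Ppp2r3d, a phosphatase subunit gene (chr9:124422956-124426005), 53.6% and 39.5%, and for Kmt2e (chr5:23432635-23434776) 40.5% and 38.3%. These 5 were counted in all 13 clusters at both stages. Each was called higher in the adult in 3 to 6 clusters, always including LOH, Endo and stroma2. In those 3 clusters their mean share was lower in the adult, as for Jun in Endo, at 63.1% at P0 and 44.9% in the adult (log2 -0.87).

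Change with age was tested cluster by cluster, on the number of nuclei with a region open, summed per sample, over all peaks of the list that passed the filter on low counts. The edgeR test asks whether a region takes a different part of all open calls of the cluster, so that an equal proportional loss of open calls is not a change. Each nucleus counts once per region, so regions open in many nuclei need not lose calls in proportion to depth. Each region passed in at least 1 cluster, 166 passed in all 13, and 6619 pairs of a region and a cluster were tested. The filter asks for a minimum count, scaled to the depth of the cluster's samples, in at least 2 samples. It left out some regions that were open at P0 and hardly in the adult, and it passed others through the samples of 1 group alone, for which a call could come in 1 direction only. Such pairs numbered 329 through P0 samples alone, of which 252 were called, and 238 through adult samples alone, of which 118 were called. Higher at P0 were 1004 pairs (15.2%), against 18.0% of all tested peak and cluster pairs. Higher in the adult were 780 (11.8%), against 16.0%. Among the 6052 pairs where at least 1 sample of each stage reached the minimum, 752 were called at P0 and 662 in the adult. These include pairs where a single adult sample did, as for Gfra1 in CNT, Slc38a1 in PC and Spry4 in NP. They are thus not free of the filter. In the pairs reached from both stages, regions were called at P0 more often than all peaks in every cluster except IC and immune nuclei, unlike in the sums. In the adult they were called more often in NP, Podo, LOH, PC, Endo and both stromal clusters, and less often in PT, PT2, DCT and CNT. The clusters weigh differently in the 2 sums, so the summed shares are not read as a contrast, and regions and all peaks are compared only within a cluster. Within a cluster the regions had higher counts than the typical peak, and an equal change is easier to call at higher counts. A larger share called is thus not read as a larger change with age, and the part of the counts in these shares was not tested. Leaving out P0 sample 1 or 2, which left a single P0 sample, gave 500 and 594 pairs higher at P0 and 206 and 226 higher in the adult. Leaving out P56 sample 1 gave 1205 higher in the adult.

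The scale matters for the adult calls. The raw share was higher at P0 in 83.8% of the tested pairs. Of the 780 pairs called higher in the adult, 337 had a higher raw share at P0, of which 149 were in LOH, 94 in stroma2, 77 in Endo, 15 in stroma1 and 2 in PC. The other 443 rose in raw share as well. No pair called higher at P0 had a lower raw share there. A call therefore names the side on which the region takes the larger part of the open calls.

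By cluster, LOH had the most calls, with 173 of 653 tested regions higher at P0 (against 29.9% of all tested peaks, the region share being 26.5%) and 187 higher in the adult (28.6%, against 24.5%). In NP, 111 of 415 were higher at P0 (26.7%, against 18.5%) and 74 in the adult (17.8%, against 20.6%). This contrast is between nuclei named NP at each stage, and their likeness was not checked. In CNT, 106 of 543 were higher at P0 (19.5%, against 11.2%) and 33 in the adult (6.08%, against 11.7%). In PC, 132 of 601 were higher at P0 (22.0%, against 16.7%) and 63 in the adult (10.5%, against 12.7%). The reading against all peaks depended on how they passed the filter. Where samples of both stages reached the minimum, 20.8% of regions against 12.7% of all peaks were called at P0 in NP, 13.2% against 4.70% in CNT, 18.8% against 9.22% in PC and 25.2% against 16.2% in LOH, so that in LOH the order of the shares turned. In the adult the shares were 10.4% against 5.18% in NP, 5.79% against 6.07% in CNT, 10.6% against 9.19% in PC and 29.1% against 24.2% in LOH, and the order turned in NP and PC. None of these differences in share was tested.

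In PT, 90 of 652 were higher at P0 (13.8%, against 17.6%) and 80 in the adult (12.3%, against 16.3%). In PT2, 51 of 586 were higher at P0 (8.70%, against 7.1%) and 14 in the adult (2.39%, against 8.83%). In Podo, 18 of 426 were called at P0 and another 18 in the adult (4.23% each, against 3.51% and 6.07%). In DCT, 14 of 386 were higher at P0 (3.63%, against 1.05%) and 3 in the adult (0.777%, against 2.83%). Where both stages reached the minimum, the shares called at P0 were 12.3% against 9.95% in PT, 5.62% against 2.87% in PT2, 2.65% against 1.24% in Podo and 1.41% against 0.222% in DCT, and those called in the adult were 12.5% against 15.8%, 2.36% against 4.47%, 2.91% against 1.85% and 0.282% against 0.618%. The order of the shares turned at P0 in PT and in the adult in Podo.

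Outside the nephron, 89 of 590 regions in Endo were higher at P0 (15.1%, against 17.0%) and 84 in the adult (14.2%, against 14.4%). In stroma1, 97 of 511 were higher at P0 (against 20.8%) and 85 in the adult (16.6%, against 17.1%). In stroma2, 123 of 639 were higher at P0 (19.2%, against 26.5%) and 139 in the adult (21.8%, against 23.7%). Where both stages reached the minimum, the shares were 12.4% against 9.38% at P0 and 13.8% against 12.7% in the adult in Endo, 14.8% against 9.82% and 11.5% against 9.51% in stroma1, and 17.5% against 16.6% and 21.3% against 17.0% in stroma2, so that regions then stood above all peaks in both directions. The part of their higher counts in this order was not tested. In IC 0 of 428 were called by edgeR in either direction (against 0.0% at P0 and 0.114% in the adult), with 37 at an unadjusted p under 0.05, 0 calls by DESeq2 and 2 by limma on the unsaturated rate. In immune nuclei 0 of 189 were called (against 0.0497% and 0.0995%), with 17 at an unadjusted p under 0.05 and 0 calls by DESeq2 or limma. Without P56 sample 1, IC had 9 calls and immune nuclei 7.

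The balance of the directions depended on the filter. Without it, the median log2 difference of all peaks in NP moved from -0.02 to 2.11, and 499 regions were called at P0 and 12 in the adult there. The counts were 135 and 6 in Podo, 297 and 27 in stroma1, 209 and 34 in stroma2, 157 and 77 in LOH and 75 and 22 in Endo. The proximal tubule turned the other way, with 41 called at P0 and 242 in the adult in PT and 15 and 160 in PT2, and DCT had 5 and 6. All peaks tilted the same way in each of these clusters. NP had 53404 called at P0 and 6654 in the adult of 293309 peaks tested. Podo had 5269 and 786, stroma1 28807 and 5755, stroma2 40232 and 11194, LOH 39441 and 17784 and Endo 12314 and 3585. PT had 17385 and 33374, PT2 2543 and 16641 and DCT 209 and 893.

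Single samples weighed on these counts. Without P0 sample 1, LOH had 122 regions called at P0 and 51 in the adult, and without P56 sample 1, PT had 115 and 186 and Endo 73 and 176. In both directions together, leaving out P0 sample 1 or 2 gave 0 and 0 calls in PT2 in place of 65, 41 and 49 in PT in place of 170, 28 and 34 in Endo in place of 173, 57 and 67 in PC in place of 195, and 102 and 100 in stroma2 in place of 262. It gave 173 and 191 in LOH in place of 360, 97 and 114 in stroma1 in place of 182, 39 and 71 in CNT in place of 139, 14 and 16 in Podo in place of 36, and 1 and 0 in DCT in place of 17. Without P56 sample 1 there were 301 calls in PT and 45 in DCT, without P56 sample 2 there were 112 in PC and 10 in DCT, and without the P21 sample 23 in Podo and 27 in DCT.

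**Figure D5:**
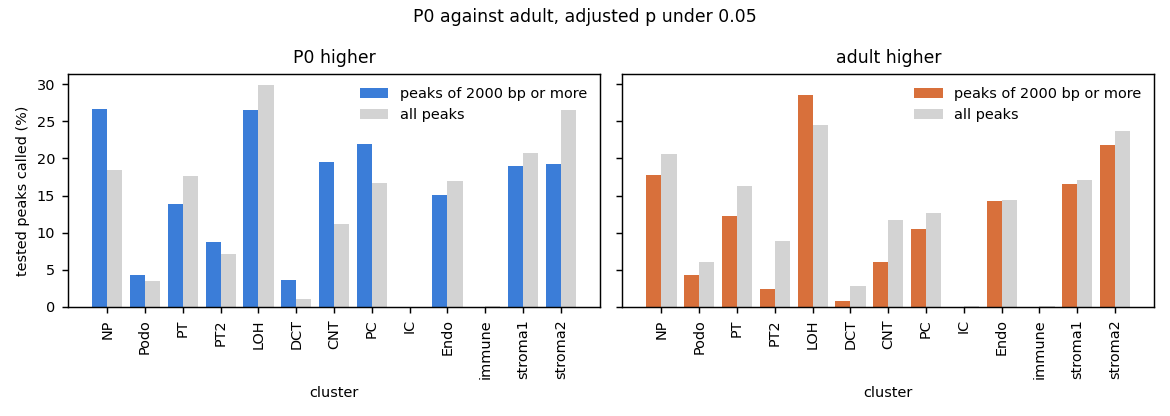
Bars give the percent of tested peaks called at an adjusted p under 0.05 (y axis) in each of the 13 clusters (x axis), higher at P0 (left) and higher in the adult (right), with the regions of 2000 bp or more in colour and all peaks in light grey. At P0 the coloured bars exceed the grey ones in NP, Podo, PT2, DCT, CNT and PC, and in IC and immune nuclei they are at 0.

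Over all tested pairs, regions among those with the most clusters called at P0 lay over the starts of Tgif2, Fbn2, Gli3, Tmeff1, Gpc6 and Basp1. This order owed part to clusters passed through P0 samples alone, so the counts given are of clusters where samples of both stages reached the minimum. Tgif2, a homeobox repressor of TGF-beta targets (chr2:156839508-156841762), was called in 7 of 7 such clusters. In Endo it was open in 37.7% and 35.2% of nuclei at P0, 8.60% in the P21 sample and 5.34% and 8.12% at P56, without overlap (log2 1.02 ± 0.23 SE, edgeR adjusted p = 0.00184). In DCT, where it passed the filter through the P0 samples alone, its mean share was 21.2% at P0 and 1.53% in the adult. Fbn2, which encodes a fibrillin of the fetal matrix, was called in 4 of 4, in each of which a single adult sample reached the minimum. In NP it was open in 32.5% and 40.9% of nuclei at P0, 0% in the P21 sample and 1.11% and 0% at P56, and both groups lay far apart. It passed the filter there through the P0 samples alone, so no fold is given. The counts of 0 allow shares of up to 5.77% of 52 nuclei at P21 and 5.66% of 53 nuclei in P56 sample 2. In LOH it was open in 29.9% and 30.5% at P0, 2.28% in the P21 sample and 0.576% and 1.105% at P56.

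Gli3, a transcription factor of hedgehog signalling (chr13:15462668-15464719), was called in 6 of 6. In NP it was open in 34.2% and 40.5% of nuclei at P0, 5.77% in the P21 sample and 3.33% and 7.55% at P56, and there too it passed the filter through the P0 samples alone. Tmeff1, a transmembrane protein with follistatin-like domains (chr4:48584646-48586991), was called in 6 of 7, with 30.0% and 34.8% of NP nuclei at P0, 7.69% in the P21 sample and 7.78% and 9.43% at P56, where it also passed the filter through the P0 samples alone. All adult samples of both regions lay well below the P0 ones. Gpc6, a cell surface glypican (chr14:116925057-116927355), was called in 6 of 7, with 40.0% and 43.4% of LOH nuclei at P0, 6.35% in the P21 sample and 6.81% and 4.20% at P56. Basp1 (chr15:25412291-25415225) was called in 7 of 8, with 29.7% and 31.8% of stroma2 nuclei at P0, 8.74% in the P21 sample and 6.73% and 6.10% at P56. By this count other regions stood higher, namely those over the starts of Nfatc4, a transcription factor of calcineurin signalling (9 of 12), and of Csf2ra, Sema4c and Zfp462 (8 each). Over all tested pairs, called in 11 clusters for Tgif2, 10 for Gli3, 10 for Tmeff1 and 9 for Basp1, the counts were 6 for Gli3, 6 for Tmeff1 and 5 for Basp1 without P0 sample 1, and 7 for Tgif2, 6 for Gli3 and 5 for Basp1 without P0 sample 2.

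The regions called higher in the adult in the most clusters included 2 at noncoding RNA genes. The one over the start of 2410080I02Rik (chr19:23134022-23136407), 4819 bp from the start of Klf9, was called in 10 of 13 clusters. In PT2 it was open in 34.9% and 29.5% of nuclei at P0, 48.1% in the P21 sample and 46.3% and 78.4% at P56, with all adult samples above (log2 -1.08 ± 0.23 SE, edgeR adjusted p = 0.00933). In Podo its mean share was 15.1% at P0 and 49.6% in the adult (log2 -1.84). Neat1, the noncoding RNA that builds paraspeckles, started in a region (chr19:5845309-5847672) called in 8 of 13. In CNT it was open in 36.3% and 44.6% at P0, 66.3% in the P21 sample and 41.5% and 81.6% at P56, where P56 sample 1 overlapped the P0 samples (log2 -1.03 ± 0.19 SE, edgeR adjusted p = 0.000401).

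An intronic region of Shb, an SH2 adaptor protein (chr4:45521428-45523518), was called in 8 of 10, which falls to 5 of 5 where samples of both stages reached the minimum. In PT it was open in 20.8% and 17.1% at P0, 29.1% in the P21 sample and 22.7% and 45.4% at P56, without overlap (log2 -1.13 ± 0.22 SE, edgeR adjusted p = 0.00195). In NP its mean share was 2.90% at P0 and 22.7% in the adult, and it passed the filter there through the adult samples alone, so no fold is given. Tmem94 (chr11:115765289-115767510) was called in 9 of 13 (8 of 12 where both stages reached it), and a region 140863 bp from the start of Irf2bp2 (chr8:126734849-126737407) in 8 of 12. In Endo the latter was open in a mean of 17.6% of nuclei at P0 and 31.8% in the adult (log2 -2.23). Under the other tools and samples left out, none of these 5 was called higher at P0 in any cluster, and the lowest counts of clusters were 8 for 2410080I02Rik and 3 for Tmem94. Without P0 sample 1 the counts were 3 for Tmem94 and 5 for Shb, and without P0 sample 2 they were 6 and 5. Without P56 sample 2 the count for Tmem94 was 6.

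Relative to all open calls, the change with age was called unequal between clusters for most regions. The interaction of cluster and stage was called for 623 of 658 regions (94.7%), against 45.8% of all peaks tested, in an edgeR fit with the sample as a block. These regions have high counts, and in this fit the filter passed all of them. With DESeq2 size factors it was called for 488 regions, against 50891 of 126753 peaks. The interaction was not run on the unsaturated rate, and depth differed between the stages unequally over clusters. The part of depth in these calls was not tested.

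Lrp4, a receptor of the LDL receptor family that takes part in Wnt and BMP signalling (chr2:91457132-91459744), was higher at P0 in LOH, PC and both stromal clusters and higher in the adult in PT. NP and CNT were called at P0 as well, but passed the filter through the P0 samples alone. The PC call was lost by DESeq2, by limma on the unsaturated rate, without the filter, without either P0 sample and without either P56 sample. The stroma1 call was lost by limma on the unsaturated rate, without P0 sample 2, without either P56 sample and with the sample number as a block. In stroma2 it was open in 32.5% and 33.9% of nuclei at P0, 12.1% in the P21 sample and 10.8% and 6.98% at P56 (log2 0.81 ± 0.20 SE, edgeR adjusted p = 0.00187). In PT it was open in 14.1% and 9.52% at P0, 23.5% in the P21 sample and 18.2% and 33.9% at P56 (log2 -1.47 ± 0.22 SE, edgeR adjusted p = 0.000373). The groups did not overlap in either cluster and stood in opposite order.

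An intronic region of Bach2, a transcriptional repressor best known from lymphocytes (chr4:32302912-32304985), was higher at P0 in LOH and in the adult in PT, PT2 and Endo. In LOH it was open in 10.4% and 12.9% at P0, 5.33% in the P21 sample and 2.40% and 2.76% at P56 (log2 0.72 ± 0.30 SE, edgeR adjusted p = 0.0462). The LOH call was lost by DESeq2, by limma on the unsaturated rate, without the filter, without either P0 sample and without P56 sample 2. In NP it was open in 18.4% and 24.98% at P0, 1.92% in the P21 sample and 5.56% and 9.43% at P56, and it passed the filter there through the P0 samples alone. In PT it was open in 9.69% and 7.54% at P0, 20.2% in the P21 sample and 16.5% and 25.8% at P56 (log2 -1.65 ± 0.21 SE, edgeR adjusted p = 0.000153). The groups were apart in LOH, NP and PT and in opposite order in PT, while in Endo the mean share was higher at P0 (15.9% against 9.54%) although the call was for the adult (log2 -0.65). The Endo call was not made by DESeq2, by limma on the unsaturated rate or without the filter. Without P0 sample 1 or 2 there was 1 cluster called in the adult in place of 3.

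For 2 further regions the call in the adult was lost under several settings. Crlf2, a subunit of the receptor for the cytokine TSLP (chr5:109556847-109559158), was higher at P0 in 5 clusters, as in LOH with mean shares of 53.5% and 8.64%, and higher in the adult in stroma2, with 61.6% and 43.6% (log2 -0.42). In stroma2 too the mean share was thus lower in the adult, and only the part of all open calls rose. Spry4, an inhibitor of growth factor receptor signalling, was higher at P0 in 4 clusters, as in LOH with 28.0% and 4.12%, and higher in the adult in PT, where it was open in 21.02% and 17.1% at P0, 18.9% in the P21 sample and 17.0% and 31.8% at P56. The PT groups overlapped (log2 -0.61 ± 0.22 SE, edgeR adjusted p = 0.0436). Neither adult call was made by DESeq2 or by limma on the unsaturated rate, or without either P0 sample. Both were also lost with DESeq2 size factors in edgeR. The Spry4 call in PT was lost without the P21 sample and without P56 sample 2, and the Crlf2 call without the filter.

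Among the named regions over genes of the listed groups, those of Hmga2 and Slc38a1 were called at P0 in several clusters. Hmga2, a chromatin protein of fetal and progenitor cells (chr10:120475081-120477868), was called in 7 of 10 clusters. In PC it was open in 33.8% and 36.0% at P0, 7.77% in the P21 sample and 6.39% and 8.96% at P56, far apart (log2 1.69 ± 0.23 SE, edgeR adjusted p = 1.47e-05). Slc38a1, a glutamine transporter (chr15:96640684-96643589), was called in 6 of the 8 clusters where both stages reached the minimum, and in PC it was open in 29.2% and 29.7% at P0, 1.94% in the P21 sample and 3.38% and 3.77% at P56 (log2 2.66 ± 0.30 SE, edgeR adjusted p = 2.48e-06). In PC a single adult sample reached that minimum.

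The regions of Ppargc1a and Nrp1 were called only as higher in the adult, each in 4 clusters, 1 of which Ppargc1a passed through adult samples alone. Ppargc1a, a coactivator of mitochondrial genes (chr5:51551963-51554278), was called higher in the adult in 4 of 12 clusters, as in PC with 23.9% and 31.7% at P0, 30.1% in the P21 sample and 18.8% and 41.5% at P56 (log2 -0.57 ± 0.18 SE, edgeR adjusted p = 0.0156). The P56 samples lay on either side of the P0 ones. Nrp1, a coreceptor for vascular growth factors (chr8:128357011-128359598), led in Endo at P0, at 42.7% and 40.3%, and was open there in 20.4% in the P21 sample and 26.1% and 22.7% at P56. In PT it was open in 17.4% and 8.98% at P0, 28.6% in the P21 sample and 25.01% and 45.3% at P56, so that the order of the groups was turned (log2 -1.71 ± 0.25 SE, edgeR adjusted p = 0.000298). The starts of the transcription factor genes Mecom and Maf were called in 2 of 11 and 2 of 13 clusters, with 1 of the Maf calls passed through adult samples alone.

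The Hox regions, over genes that pattern the body axis, were led by distal clusters at P0. Hoxd8 (chr2:74704025-74706354) was open in 70.6% and 64.9% of DCT nuclei at P0, 59.4% in the P21 sample and 30.0% and 77.4% at P56, with overlapping groups (log2 -0.23 ± 0.21 SE, edgeR adjusted p = 0.675), and its lowest mean share in any cluster was 3.51% at P0 and 3.63% in the adult. Hoxd9 was led by DCT at P0, at 41.4%, and by CNT in the adult, at 27.8%, and Hoxb9 by IC at P0, at 50.5%, and by NP in the adult, at 35.2%. Bmp4, a growth factor of the BMP family (chr14:46386666-46389158), was led by PT2 at both stages, at 47.8% ± 5.70 (SD, n = 2) and 41.8% ± 12.0 (SD, n = 3), and was called in 2 clusters in each direction. Rpl7, a ribosomal protein gene (chr1:16104260-16106651), was called in 0 of 13 clusters by edgeR, and its groups overlapped in Podo and PT2.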

How the data were processed

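The 5 snATAC-seq samples were grouped by their labels as P0 (2) and adult (P21, 1, and P56, 2). The authors used Cell Ranger ATAC 1.1.0 and the mm10 genome, clustered nuclei with SnapATAC and Harmony, called peaks with MACS2 per cell type on pooled nuclei and merged them. The deposited matrix holds counts of 1 or 0 per peak and nucleus, the deposited peak list gives widths in bp and the deposited annotation gives clusters. The members and gene lists were chosen with earlier results of these data known.

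Counts of open nuclei were summed per sample and cluster and tested, for all peaks passing filterByExpr (minimum count 10, minimum total 15), with edgeR 4.0.16 (TMM, quasi-likelihood, Benjamini-Hochberg adjusted p under 0.05 within a cluster) in R 4.3.3. The script was tested on simulated data. How doublets were treated is not given in the sources used here, and no doublet caller was run. Cluster shares are means over samples of the percent of nuclei with a region open. They depend on depth (3371 to 6737 open peaks in the median nucleus), so shares thinned to 1000 open peaks per nucleus are given too, leaving out 77 to 257 shallower nuclei per sample. Limits for a count of 0 use 3 nuclei and cover counting error only. Start sites were those of GENCODE on mm10.

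Named regions were the 10 widest, the 3 on each side of 2000 bp, up to 2 restricted per cluster by ratio, the 6 called in most clusters per direction, 4 called in both directions by interaction p, the 5 most open everywhere and up to 3 per gene list. Ndrg1, Kynu, Pfkfb3, Hhex, Ttc28, S1pr1, Gm34574, Ephb4, Col1a2, Fbln5, Mylk, Nfatc4, Csf2ra, Sema4c and Zfp462 were named after their values were seen. A region and a sequence that these rules chose are not reported here. Regions without a start site and outside genes took the name of the nearest coding start. Alternatives were DESeq2 1.42.0, its size factors, no filter, limma 3.58.1 on the unsaturated rate, a minimum width of 2500 bp, other limits for breadth and leaving out each sample. Deviations of same-numbered P0 and P56 samples were weakly correlated (-0.024 in immune nuclei to 0.155 in stroma2), so the main fits did not pair them. This does not exclude a shared factor, and the Y chromosome region was high in both samples numbered 2.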

Additional observations from a re-analysis of the deposited data

Results flagged for a closer look

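In all, 91 regions were called at P0 in some clusters and in the adult in others. The interaction of cluster and stage was called for 90 of these. How many of all peaks were called in both directions was not counted. The 4 regions flagged here had the smallest p in the edgeR interaction test, so their p-values reflect that choice. The adjusted p was 1.33e-64 for the start of Lrp4, 5.05e-50 for the start of Crlf2, 3.36e-45 for the intronic region of Bach2 and 2.31e-44 for the start of Spry4. Lrp4 was higher in the adult in PT and at P0 in 6 clusters, of which NP and CNT passed the filter on low counts through the P0 samples alone. Its calls in PC and stroma1 were lost under several settings. Bach2 was higher in the adult in 3 clusters and at P0 in LOH, a call lost under several settings, and in NP, which passed the filter through the P0 samples alone. Crlf2 was higher at P0 in 5 clusters and in the adult in stroma2, and Spry4 was higher at P0 in 4 and in the adult in PT. In stroma2 the mean share of the Crlf2 region was nonetheless higher at P0, as was that of the Bach2 region in Endo. DESeq2 and limma on the unsaturated rate made neither the stroma2 call of Crlf2 nor the PT call of Spry4. Groups of 2 and 3 samples are too small for a test of single outlying samples.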

How the results depend on the processing

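Over 24 results, 232 alternatives were run, of which 131 stayed within 1.5 times or the replicate spread and 101 did not. The alternative of 2500 bp or more counts among 96 of the 658 regions, so its counts could hardly stay within 1.5 times. Thinning lowers the median share in every cluster, though not by the same factor. The moves of counts at 2500 bp and of thinned median shares were set by the alternative. They say nothing on the stability of a result. Thinned counts of restricted and broad regions are not of this kind. Regions restricted to the same cluster at both stages moved from 5 to 10. Pairs called higher at P0 numbered 1004, against 634 by limma on the unsaturated rate and 169 among regions of 2500 bp or more, and 500 to 1214 when single samples were left out. Those higher in the adult numbered 780, against 504 by DESeq2, 414 by the rate, 127 at 2500 bp and 206 to 1205 with samples left out. By DESeq2, calls numbered 10 in Podo, 4 in DCT, 74 in CNT, 112 in PC, 65 in Endo and 150 in stroma2. Without the filter they numbered 511 in NP, 141 in Podo, 283 in PT, 175 in PT2, 234 in LOH, 11 in DCT, 67 in CNT, 0 in PC, 4 in IC, 97 in Endo and 324 in stroma1. By the rate they numbered 3 in Podo, 237 in LOH, 58 in PC, 2 in IC, 45 in Endo, 87 in stroma1 and 134 in stroma2. At 2500 bp or more they numbered 36 in NP, 8 in Podo, 28 in PT, 12 in PT2, 45 in LOH, 4 in DCT, 27 in CNT, 30 in PC, 32 in Endo, 30 in stroma1 and 44 in stroma2. With samples left out the ranges were 154 to 262 in NP, 14 to 31 in Podo, 41 to 301 in PT, 0 to 88 in PT2, 173 to 453 in LOH, 0 to 45 in DCT, 39 to 195 in CNT, 57 to 252 in PC, 0 to 9 in IC, 28 to 249 in Endo, 0 to 7 in immune nuclei, 97 to 223 in stroma1 and 100 to 309 in stroma2. A lone P0 sample was assumed to vary like the others.

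The paper's methods give every sample a batch number of its own. In the deposited annotation the batch number counts within an age, so that P0 and P56 samples have numbers in common. Whether same-numbered samples share anything else is not stated. With the number within an age as a block, in a fit that also leaves out the P21 sample, 1078 pairs were called at P0 and 676 were called in the adult, and calls numbered 17 in Podo, 118 in PT2, 54 in DCT and 2 in IC. The other clusters stayed within 1.5 times. The parts of the block and of the missing sample in these moves were not separated.

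The interaction was called for 623 regions, for 94 at 2500 bp or more and for 449 to 617 with samples left out. Restricted regions numbered 14 at P0 and 37 in the adult. Counting clusters from 33.3% of the highest gave 2 and 15, from 66.7% 66 and 99, and 2500 bp or more 1 and 4, while the rate -ln(1 - share) gave 24 at P0. Leaving out samples gave 13 to 16 and 37 to 46. Without the 10% minimum, an alternative chosen after seeing the data, they numbered 14 and 51. Those restricted to the same cluster at both stages numbered 5, against 10 thinned, 1 at 33.3%, 25 at 66.7%, 1 at 2500 bp and 3 to 6 with samples left out. Broad regions numbered 268 and 174, against 416 and 321 at 33.3%, 97 and 46 at 66.7%, 49 and 32 at 2500 bp, and 213 to 263 and 157 to 177 with samples left out. A start site lay in 77 regions of 2500 bp or more. The median share was 18.6% at P0 and 12.4% in the adult, against 2.73% and 2.66% thinned, 24.4% and 16.7% at 2500 bp, and 18.2% to 19.2% and 10.4% to 14.1% with samples left out. IC, DCT and immune nuclei rested on 96, 108 and 156 nuclei at P0.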

Other observations

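Of the nuclei outside the 13 clusters, 217 adult ones carried the deposited name NP_LOH, and the median region was open in 8.30% of them over 3 samples. Nuclei named PT_out numbered 157 at P0 and 289 in the adult, and the median region was open in 18.5% (2 samples) and 17.5% (3 samples).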
